A study of Homo sapiens with 20 samples.

Results

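The last step of a differentiating erythroid culture was examined, day 12 against day 8, over the 14504 genes that could be tested of the 46425 gene symbols in the deposited tables. The cells are HUDEP-2, human cord blood erythroid progenitors made immortal, wild type in genotype and kept in differentiation medium with erythropoietin (EPO) throughout. Stem cell factor (SCF) was left out of the medium from day 6 and doxycycline from day 8, so that the day 8 cells had grown with doxycycline and the day 12 cells had spent their last days without it. Doxycycline keeps on the viral oncogenes that immortalize this line, and those oncogenes are known to hold down the p53 and RB proteins. Days in culture and the withdrawal of doxycycline cannot be told apart in this comparison. Of the 20 libraries of the series, 4 belong to it, 2 on each day, and the comparison was defined by the day alone. Of each day, library A comes from the table that spans all days and library B from a table of separate days. The labels number the 2 libraries of a day as replicates, and the study calls those of days 0 and 8 biological replicates where it compares these days. Whether each was a culture of its own is not said, so the p-values measure the spread between these libraries, which may be technical.

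Day 8 stands for polychromatic erythroblasts and day 12 for orthochromatic erythroblasts and reticulocytes, and no sorting step is named for the RNA, so a day 12 library averages over cells with and without a nucleus. In the last steps of erythropoiesis a cell stops dividing, fills with haemoglobin, condenses and expels its nucleus, and then clears its mitochondria and ribosomes by autophagy and the ubiquitin-proteasome system while little is transcribed. What is left of the mRNA is therefore read as a share of a shrinking total: in bulk samples, fewer cells of a type and less RNA per cell cannot be told apart. Levels within a gene are given as normalised CPM, which are counts scaled to a common library total (CPM) and corrected for composition. Levels set beside those of other genes are given as TPM, which also allow for transcript length. In every such series library A is given before library B.

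The 4 libraries held 52131713 to 68987261 counts. A gene with 0 counts could thus have a level of up to 3 counts, or 0.0435 to 0.0575 CPM by library, a limit for counting error alone, as reads had no molecular barcodes. Across genes, which are not independent replicates, the libraries of each day had a Spearman's rho of 0.975 on day 8 and 0.983 on day 12. Of the genes compared, 74.0% on day 8 and 63.4% on day 12 differed between the libraries by more than sampling noise, so they were not a library deposited more than once. Ribosomal RNA genes took 16.8% of the counts of day 8 library B against 1.88% to 2.68% in the other 3. Of 9 erythroid marker genes 9 were tested, and their summed level was 51098 and 72389 normalised CPM on day 8 and 395294 and 272047 on day 12. Markers of megakaryocytes, mast cells, monocytes and macrophages, neutrophils, lymphoid cells and stem cells, 44 genes in all, summed to at most 10.6 normalised CPM per list in any of the 4 libraries. Of these, ITGA2B and 3 macrophage genes, CD68, CD14 and MRC1, were called higher on day 12, with macrophage list sums of 1.61 and 3.16 on day 8 and 7.20 and 9.03 on day 12. ITGA2B and MRC1 lost their call without day 12 library B, CD68 without either day 12 library and CD14 without day 8 library A or either day 12 library (adjusted p up to 0.186).

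Of the genes tested, 53.1% were called in either direction, and the split between rises and falls rests on how the libraries are scaled. The larger globin share of day 12 makes up a part of this. Globin genes took 8.49% and 9.85% of the counts on day 8 and 33.7% and 28.2% on day 12. A library scaled to its total therefore gives every other gene a smaller share on day 12. In the main comparison each library was scaled by the TMM method, which sets the trimmed mean of the log ratios of most genes to 0 and so takes the globin excess out of the reference. Under it 3569 genes were higher on day 12 (24.6% of those tested) and 4130 lower (28.5%) at an adjusted p under 0.05 (edgeR's quasi-likelihood test, Benjamini-Hochberg adjustment over all genes tested), with a median log2 fold change (log2 FC) of −0.10 over all genes. Scaled to the total instead, 1646 genes (11.3%) were higher and 6409 (44.2%) lower, with a median of −0.99, so that rises made up 46.4% of the calls with TMM and 20.4% with total counts. TMM places genes about 0.89 higher on the log2 scale than total counts do, and 0.40 of this is what the globin share alone gives. The larger part, 0.50, is left after the globin genes, and its source was not tested. Left without the globin genes, the TMM factors shifted the genes by the same 0.89 and gave 3570 rises and 4120 falls. A rise well below that shift with TMM is therefore a fall with total counts. Close to the shift the sign can be either, as the offset is not quite the same for every gene. Values under total counts are printed beside each group below. The count of each list below is to be read beside the shares over all genes tested, 24.6% higher and 28.5% lower with TMM. A log2 FC followed by a value in parentheses is given with its adjusted p. SE stands for the standard error of a log2 FC. Of the 7699 genes called, 7697 had no overlap between the libraries of the 2 days. Both sets of libraries gave the same direction for 7698. These counts are of genes that the same libraries had selected, so they add no support of their own, and the share over all genes tested is not given. With a library left out, rises came to 2853 and falls to 3434 without day 8 library A, to 3592 and 4117 without day 8 library B, to 1905 and 2236 without day 12 library A and to 2437 and 3097 without day 12 library B.

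The change also went with the level of a transcript and, over a narrower range, with its length. With genes put into 4 equal bins by transcript length, the median log2 FC was 0.17 in the shortest and −0.15, −0.26 and −0.26 in the longer ones. By mean level it was −0.09, −0.67 and −0.40 in the 3 lower bins and 0.53 in the highest, where 45.4% of genes were called higher against 16% in the lowest. Changes of at least 4 on the log2 scale were seen in 514 rises and 946 falls. Of all calls, 440 had at most 3 counts in each day 12 library, and 240 had at most 3 in each day 8 library.

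Globin mRNA rose further from a level that was already high. Globins are the protein chains of haemoglobin, alpha-like from chromosome 16 and beta-like from chromosome 11. The adult beta chain HBB stood at 151151 and 171964 TPM on day 8 and 332052 and 284879 TPM on day 12, and the alpha chain HBA1 at 47719 and 61989.7 TPM on day 8 and 143141 and 141503 TPM on day 12. In both cases the day 12 libraries lay above the day 8 libraries. The log2 FC was 2.45 (SE 0.78, adjusted p = 0.036) for HBB, 2.87 (SE 0.67, adjusted p = 0.012) for HBA1 and 2.85 (SE 0.65, adjusted p = 0.011) for HBA2, whose coding sequence is near-identical to that of HBA1, so that the division of reads between them is uncertain. Of the 10 globin genes, 8 were called higher and none lower (7 and 1 with total counts), with a median log2 FC of 2.86 (1.98 with total counts) against −0.10 over all genes. With a term for the set of tables HBB was not called (adjusted p = 0.113). HBB lost its call without day 12 library A (adjusted p = 0.053).

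The largest rises among the globins were in the fetal and embryonic chains. The fetal gamma chain HBG2 was at 622 and 1364 TPM on day 8 and 9369 and 19729.9 TPM on day 12, and its near-identical copy HBG1 at 342 and 799 TPM on day 8 and 5219 and 11999 TPM on day 12. Library B was the higher on both days, and no day 8 library came near a day 12 library. Their log2 FC was 5.26 (SE 0.67, adjusted p = 0.0016) and 5.29 (SE 0.68, adjusted p = 0.0016), 38.4-fold and 39.3-fold on the normalised CPM scale, with 4.46 and 4.50 under total counts. Gamma chains went from 0.381% and 0.719% of all globin TPM on day 8 to 2.32% and 5.34% on day 12. The embryonic epsilon chain HBE1 had 0.177 and 0.556 normalised CPM on day 8 and 35.2 and 70.6 on day 12, a log2 FC of 7.16 (SE 0.66, adjusted p = 0.00067). The theta-like HBQ1 rose with 2.99 (0.0025). Embryonic zeta globin HBZ, at 4.09 and 11.1 normalised CPM on day 8 and 5.20 and 57.5 on day 12, overlapped between the days and was not called, 2.04 (adjusted p = 0.13). The minor adult delta chain HBD had 1.43 (adjusted p = 0.025), but 0.54 (adjusted p = 0.13) under total counts, and HBM, a mu globin of no known protein role, had −0.23 (adjusted p = 0.54), or −1.09 (adjusted p = 0.012) under total counts. HBD lost its call without day 12 library A (adjusted p = 0.111).

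**Figure D1:**
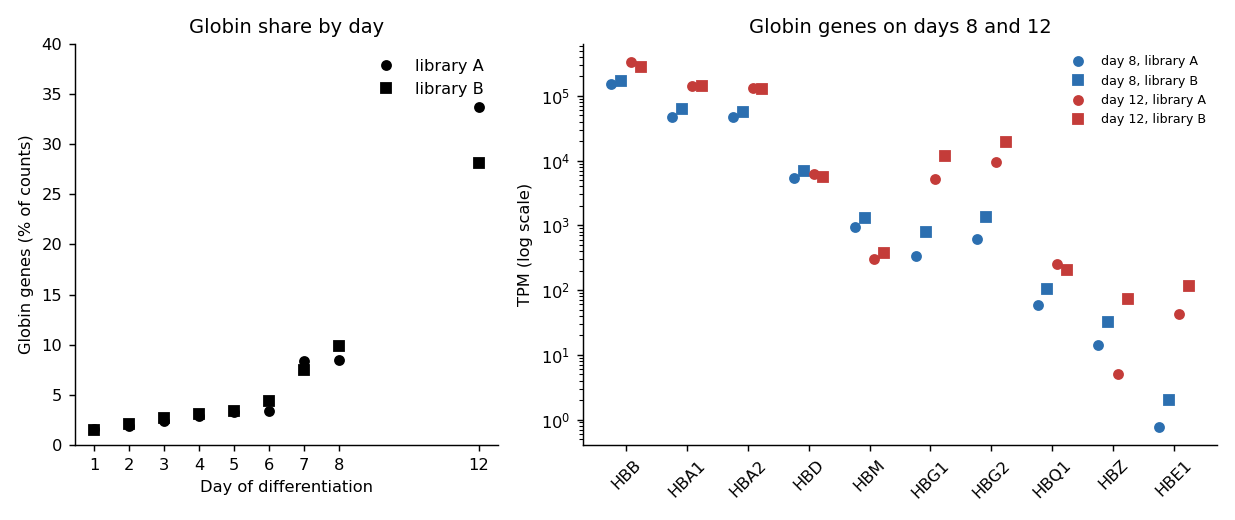
Left, share of counts in the 10 globin genes by day (vertical axis, percent; horizontal axis, day of differentiation), with library A as circles and library B as squares; right, TPM of each globin gene on a log scale in the same 4 libraries of days 8 and 12. The share is below 10% on every day up to 8 and 33.7% and 28.2% on day 12, and the gamma and epsilon chains show the widest gaps between the days.

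The heme pathway did not follow the globins, and its share of genes called higher was close to the 24.6% of all genes tested. ALAS2, the erythroid enzyme of the committed first step, had 1006 and 1443 normalised CPM on day 8 and 3479.9 and 2586 on day 12 and FECH, which inserts the iron at the end, 617 and 606 on day 8 and 1089 and 1263 on day 12. The day 12 libraries were the higher for both, with log2 FC of 1.31 (adjusted p = 0.024) and 0.94 (adjusted p = 0.026), which shrank to 0.42 (adjusted p = 0.21) and 0.05 (adjusted p = 0.89) under total counts. CLPX, a mitochondrial protease component that activates ALAS enzymes, was the remaining rise, at 1.66 (adjusted p = 0.0016). The middle enzymes ALAD and UROS fell with −1.06 (0.014) and −1.85 (0.0015), as did PPOX with −0.69 (0.036), the mitochondrial transporter ABCB10 with −1.24 (0.026) and TMEM14C, needed for porphyrin import, with −1.57 (0.0028). In all, 3 of 12 genes were called higher and 5 lower (0 and 7 with total counts, and 1 and 2 without day 12 library A), with a median log2 FC of −0.51 (−1.41 with total counts). ALAS2, ALAD and ABCB10 lost their call without day 12 library A, FECH without either day 12 library and PPOX without any 1 library (adjusted p up to 0.157).

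Among iron handling genes, 3 of uptake were lower, and the ferritin chains and the iron exporter were higher. The transferrin receptor TFRC, the route of iron into the cell, had 5791 and 5533 normalised CPM on day 8 and 1510.4 and 2404 on day 12. The endosomal iron reductase STEAP3 had 68.9 and 38.5 on day 8 and 14.2 and 20.4 on day 12, and the iron transporter SLC11A2 91.0 and 91.6 on day 8 and 40.1 and 54.9 on day 12. All 3 were lower in both day 12 libraries, with log2 FC of −1.53 (SE 0.40, adjusted p = 0.018), −1.64 (SE 0.35, adjusted p = 0.0091) and −0.94 (SE 0.24, adjusted p = 0.016). The ferritin chains FTH1 and FTL, which store iron, rose by 2.92 (SE 0.53, adjusted p = 0.0053) and 2.83 (SE 0.61, adjusted p = 0.0094), from 6474 and 8307 TPM on day 8 to 19688 and 19846 TPM on day 12 for FTH1, and together they went from 0.772% and 1.12% of the counts to 4.22% and 3.35%. SLC40A1, ferroportin, the exporter of iron, had 162 and 188 normalised CPM on day 8 and 1114 and 981 on day 12 and rose with 2.58 (0.00097). NCOA4, the receptor that takes ferritin to the lysosome, rose with 2.28 (0.0032), and the mitochondrial iron importer SLC25A37 with 1.78 (0.014). FLVCR1, a heme exporter, fell from 7.0 and 4.61 on day 8 to 0.389 and 0.729 on day 12, a log2 FC of −3.37 (adjusted p = 0.0033). ACO1 fell with −1.94 (0.0025). Counting the whole list, 8 of 15 genes rose and 5 fell (6 and 7 with total counts, and 7 and 2 without day 12 library A), and the median was 1.31 (0.38 with total counts). TFRC, STEAP3 and SLC11A2 lost their call without day 12 library A (adjusted p up to 0.101).

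Several membrane skeleton genes were called under one scaling and not the other. The band 3 anion exchanger SLC4A1, the main membrane protein of the red cell, was at 3178 and 4779.9 normalised CPM on day 8 and 7174 and 7564 on day 12, with no overlap between the days but a log2 FC of 0.89 (SE 0.41, adjusted p = 0.11) that was not called, and 0.03 under total counts. Beta spectrin SPTB had −0.43 (adjusted p = 0.23). Protein 4.1 (EPB41), dematin (DMTN) and stomatin (STOM) rose under both scalings, with 1.92 (0.0029), 1.95 (0.0067) and 2.05 (0.0029). Beta adducin ADD2 was the exception in the other direction, at 639 and 388 normalised CPM on day 8 and 36.1 and 53.8 on day 12, 11.4-fold lower with a log2 FC of −3.51 (SE 0.37, adjusted p = 0.00095). Of 15 genes, 7 were called higher and 1 lower, against 3 and 2 with total counts, and 4 and 1 without either day 12 library, and the median moved from 0.89 to 0.03.

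Carriers of blood group antigens and other surface proteins showed 9 rises and 3 falls among 24 genes (2 and 6 with total counts, and 5 and 2 without day 12 library A; median 0.66, or −0.22 with total counts). The glucose transporter SLC2A1, the main sugar carrier of human red cells, had 404 and 763 normalised CPM on day 8 and 3292 and 3161 on day 12 and rose with 2.47 (0.004). CD55, which shields cells from complement, had 17.9 and 34.9 on day 8 and 185 and 187 on day 12 and rose with 2.82 (0.0016). These were the rises that also passed under total counts. In the opposite direction, the water channel AQP1 went from 261 and 276 normalised CPM on day 8 to 54.7 and 39.7 on day 12, a log2 FC of −2.51 (adjusted p = 0.0009). CD47, a signal that keeps macrophages from engulfing a cell, had 54.2 and 52.6 on day 8 and 7.76 and 18.1 on day 12 and fell with −2.05 (0.0068). ACKR1, the Duffy antigen, fell with −1.50 (0.014). RHAG, which carries the Rh complex to the membrane, had −0.21 (adjusted p = 0.58). ACKR1 lost its call without either day 12 library (adjusted p up to 0.085).

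Receptors of early erythroid cells fell. KIT, the receptor of SCF, had 72.4 and 18.5 normalised CPM on day 8 and 1.53 and 4.81 on day 12, and the integrin chain ITGA4, which binds fibronectin, had 330.4 and 183 on day 8 and 3.14 and 6.67 on day 12. CD36, a fatty acid carrier used to stage erythroblasts, had 1126 and 989 on day 8 and 179 and 316 on day 12. For each of these the day 12 libraries lay below the day 8 libraries, and KIT was uneven between those of day 8. Log2 FC were −3.84 (SE 0.80, adjusted p = 0.0082), −5.71 (SE 0.52, adjusted p = 0.00064) and −2.09 (SE 0.35, adjusted p = 0.004). With TFRC above and endoglin (ENG, −2.14 (0.013)), 5 of the 8 genes tested of 12 listed fell (7 with total counts, and 1 and 2 without day 12 library A), and the median was −2.12 (−3.05 with total counts). The EPO receptor EPOR was the single call in the other direction, at 177 and 234 normalised CPM on day 8 and 439.9 and 492 on day 12 and 1.18 (adjusted p = 0.01), but it was not called under total counts, 0.31 (adjusted p = 0.37). KIT lost its call without day 12 library A, ENG without either day 12 library and EPOR without day 12 library B (adjusted p up to 0.095).

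Downstream of the EPO receptor most genes were not called. JAK2, its kinase, had −0.01 (adjusted p = 0.98), and the feedback inhibitor CISH, a direct STAT5 target, −0.03 (adjusted p = 0.94). STAT5A fell from 44.8 and 24.2 normalised CPM on day 8 to 10.6 and 10.1 on day 12 with −1.74 (0.0067) and STAT5B had 1.26 (0.0045), or 0.36 (adjusted p = 0.3) under total counts. The survival kinases PIM1 and PIM3 rose under both scalings, with 2.30 (0.0032) and 2.03 (0.0044). In this list 5 of 15 were called higher and 1 lower (2 and 4 with total counts, and 5 and 3 without day 8 library A), with a median of 0.03 (−0.84). STAT5A lost its call without either day 12 library (adjusted p up to 0.056).

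Nearly all listed genes of DNA replication and of mitosis were lower on day 12, many of them at traces of their day 8 level. MCM proteins form the helicase that opens DNA for copying. MCM6 (chromosome 2 from 135839626 to 135876443, hg38) had 171 and 135 normalised CPM on day 8 and 1.19 and 1.72 on day 12, and MCM3 231 and 182 on day 8 and 1.61 and 2.16 on day 12. RRM2, a subunit of the enzyme that makes deoxynucleotides, had 447 and 385 on day 8 and 7.37 and 7.46 on day 12. Day 12 held a small remnant of the day 8 level in each of them, and the days did not overlap. The log2 FC was −6.71 (SE 0.33, adjusted p = 0.0002), −6.77 (SE 0.32, adjusted p = 0.0002) and −5.81 (SE 0.28, adjusted p = 0.0002), which are falls of 105-fold, 109-fold and 56.1-fold. The sliding clamp PCNA fell less, from 265 and 271 on day 8 to 57.1 and 56.3 on day 12, with −2.24 (SE 0.22, adjusted p = 0.0008). 31 of the 32 replication genes were called lower and none higher, with a median log2 FC of −4.90 (−5.81 and 32 of 32 lower with total counts). The exception was the clamp loader subunit RFC3, at 68.4 and 70.7 normalised CPM on day 8 and 51.2 and 44.0 on day 12 and −0.55 (adjusted p = 0.065); the helicase subunit MCM7 fell less than its partners, with −0.97 (adjusted p = 0.021). MCM7 lost its call without day 8 library A or either day 12 library (adjusted p up to 0.116).

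Mitosis genes gave 30 falls among 30, under either scaling, with a median of −4.83 (−5.72 with total counts). The mitotic kinase CDK1 (chromosome 10 from 60778331 to 60794852) had 199.9 and 232 normalised CPM on day 8 and 9.0 and 7.64 on day 12 and its partner CCNB1 140 and 146 on day 8 and 8.54 and 10.7 on day 12. MKI67, the proliferation marker Ki-67, had 771 and 584 on day 8 and 9.19 and 18.1 on day 12, and the topoisomerase TOP2A 733 and 606 on day 8 and 6.08 and 10.4 on day 12. All 8 day 12 values here lie far below all 8 day 8 values. Their log2 FC were −4.70 (SE 0.26, adjusted p = 0.0002), −3.89 (SE 0.25, adjusted p = 0.00023), −5.63 (SE 0.45, adjusted p = 0.00045) and −6.34 (SE 0.40, adjusted p = 0.00024). Of genes that act in cytokinesis, ANLN fell by 69.2-fold, ECT2 by 39.9-fold and RACGAP1 by 21.0-fold. The smallest falls in the list were those of UBE2C, with −2.16 (0.003), and AURKA, with −2.25 (0.00074).

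Promoters of these genes are known for E2F sites, which RB and its relatives keep in check, and for the CHR element with a CCAAT box, which cell cycle genes of the mitotic phase share. In the 250 bases before the RefSeq gene start (GRCh38.p14), the letters TTTNNCGC, an E2F-like motif, were found on either strand in 14 of 27 replication promoters (51.9%), in 2 of 24 mitosis promoters (8.33%) and in 5.93% of all 27305 promoters of the table, or 9.13% of those of genes tested. The CHR letters TTTGAA were in 14 of 24 mitosis promoters (58.3%), in 1 of 27 replication promoters (3.70%), in 13.6% of all promoters and in 8.43% of those tested. CCAAT was in 79.2% of mitosis and 59.3% of replication promoters, in 33.0% of all and in 35.7% of those tested. It was not particular to lists that fell. Of 22 promoters of the p53 targets described below, most of which rose, 54.5% had CCAAT, 18.2% the E2F letters and 4.55% the CHR letters. For the 3187 genes called lower that matched a promoter, the shares were close to those of the 10272 genes tested that matched, at 9.92% for E2F, 10.1% for CHR and 37.7% for CCAAT. Of the replication and mitosis genes listed, 27 of 32 and 24 of 30 matched the promoter table by symbol, and the first window of a gene was used. A match is a description of letters and not a bound site, and no match says only that these letters are absent from the window. Below are 2 replication promoters with the E2F letters in capitals, MCM6 at chr2:135876444-135876693 (minus strand) and PCNA at chr20:5126623-5126872 (minus strand), and 2 mitosis promoters with the CHR and CCAAT letters in capitals, the cyclin CCNB2 at chr15:59104896-59105145 (plus strand) and the kinase PLK1 at chr16:23678639-23678888 (plus strand). They are shown because their genes fell with log2 FC of −6.71, −2.24, −4.16 and −3.89 and carry the motif class that is frequent in their list.
MCM6: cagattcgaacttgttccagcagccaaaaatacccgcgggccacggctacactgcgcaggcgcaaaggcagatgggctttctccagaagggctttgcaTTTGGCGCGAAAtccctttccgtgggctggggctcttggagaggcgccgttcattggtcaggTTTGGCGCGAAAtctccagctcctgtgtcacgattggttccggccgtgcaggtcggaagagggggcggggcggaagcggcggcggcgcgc
PCNA: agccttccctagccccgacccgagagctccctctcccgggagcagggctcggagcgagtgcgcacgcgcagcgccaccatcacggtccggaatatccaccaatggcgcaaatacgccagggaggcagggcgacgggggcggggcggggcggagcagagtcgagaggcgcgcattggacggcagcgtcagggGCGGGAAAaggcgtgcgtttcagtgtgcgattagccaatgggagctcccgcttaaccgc
CCNB2: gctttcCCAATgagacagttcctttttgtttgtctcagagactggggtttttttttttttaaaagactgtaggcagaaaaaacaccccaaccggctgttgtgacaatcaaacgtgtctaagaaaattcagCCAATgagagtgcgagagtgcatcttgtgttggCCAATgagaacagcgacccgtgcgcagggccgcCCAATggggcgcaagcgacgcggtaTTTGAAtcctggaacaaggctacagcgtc
PLK1: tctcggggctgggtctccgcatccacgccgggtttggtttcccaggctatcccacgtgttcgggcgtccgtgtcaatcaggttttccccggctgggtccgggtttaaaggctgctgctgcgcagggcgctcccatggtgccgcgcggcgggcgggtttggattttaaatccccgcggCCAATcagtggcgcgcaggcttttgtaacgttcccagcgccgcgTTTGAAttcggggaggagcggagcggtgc
In MCM6 the motif stands at 2 places, and at each the matches of the strands overlap, which gives 4 matches. CCNB2 has 4 CCAAT boxes and 1 CHR, PLK1 1 of each.

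The D and E cyclins and the cyclin-dependent kinases of the list fell, and its cell cycle inhibitors went both ways. Of the D cyclins, CCND3, the one most used by erythroid cells, fell from 464 and 618 normalised CPM on day 8 to 187 and 249.8 on day 12 with −1.31 (0.01) and CCND2 with −3.30 (0.00082). CCNE1 fell with −4.89 (0.00072), CDK2 with −5.07 (0.0002) and CDK6 with −3.82 (0.0024). E2F8, itself an E2F target, went from 46.6 and 45.9 on day 8 to 0.584 and 0.795 on day 12, a log2 FC of −6.06 (adjusted p = 0.0002), and RBL1, the RB relative p107, from 63.1 and 56.2 on day 8 to 0.340 and 0.773 on day 12, with −6.73 (0.00024), while RB1 fell less, with −0.89 (0.042). Among inhibitors, CDKN1A is described with the p53 targets. CDKN1B, which encodes p27, had 72.4 and 108 on day 8 and 246 and 289 on day 12 and 1.57 (0.0047), or 0.71 (adjusted p = 0.073) under total counts. CDKN2C, which encodes p18, fell with −0.80 (0.031). BTG1, an antiproliferative gene, rose from 16.5 and 43.8 on day 8 to 331 and 341 on day 12 with 3.48 (0.0021). The list of 22 gave 5 rises and 12 falls (3 and 16 with total counts), median −0.92 (−1.81). CCND3 lost its call without day 12 library A, RB1 without either day 8 library or day 12 library A and CDKN2C without day 8 library B or either day 12 library (adjusted p up to 0.181).

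Targets of p53 were the list with the highest median change. p53 is the transcription factor that answers DNA damage and other stress by arresting the cycle or starting apoptosis, and viral oncogenes of the kind used in this line lead to its loss. CDKN1A, which encodes the cell cycle inhibitor p21 (chromosome 6 from 36676463 to 36687332, hg38), had 0.569 and 8.68 normalised CPM on day 8 and 893 and 798 on day 12 and 45 and 734 counts in the day 8 libraries. The day 8 libraries were uneven, and even the higher of them stood far below both day 12 libraries. The log2 FC was 7.51 (SE 1.26, adjusted p = 0.0039), 6.60 to 10.48 with 1 library left out, and 6.74 under total counts. MDM2, the ubiquitin ligase that turns p53 over, had 66.1 and 75.1 on day 8 and 819 and 942 on day 12, with even libraries on day 8, and rose by 3.64 (SE 0.28, adjusted p = 0.00039). GDF15, a secreted stress cytokine, had 35.0 and 269 on day 8 and 6229 and 6055 on day 12 and rose by 5.34 (SE 0.99, adjusted p = 0.0056), with 7.48 between the A libraries and 4.49 between the B libraries.

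Of the 27 p53 targets listed, 22 were called higher and 1 lower, against 24.6% and 28.5% of all genes tested, with a median log2 FC of 3.06. Under total counts the numbers were 20 and 1 with a median of 2.23. The members were chosen with earlier results of these data known, so these counts depend on that choice. The listed targets take in several arms of the response. BBC3, which promotes apoptosis, had 22.4 and 79.9 normalised CPM on day 8 and 717 and 691 on day 12, and BAX, which opens the outer mitochondrial membrane, had 35.8 and 57.6 on day 8 and 394 and 308 on day 12. The death receptor TNFRSF10B had 1.47 and 8.58 on day 8 and 115 and 107 on day 12, and FAS had 2.97 and 7.15 on day 8 and 21.7 and 31.7 on day 12. In these 4 the days did not overlap, and in each of them day 8 library B stood above library A. Log2 FC were 3.78 (adjusted p = 0.0034), 2.91 (adjusted p = 0.0011), 4.46 (adjusted p = 0.0044) and 2.40 (adjusted p = 0.0065). Repair genes were among them, XPC from 27.4 and 27.4 on day 8 to 239 and 219.7 on day 12 with 3.07 (0.00036), DDB2 with 2.26 (0.0012) and the stress sensor GADD45A from 19.3 and 47.3 on day 8 to 509 and 552 on day 12 with 3.99 (0.0013). SESN1 and SESN2, sestrins that restrain the growth kinase mTORC1, rose with 3.37 (0.00029) and 3.06 (0.0035). PHLDA3, an inhibitor of AKT, had 4 and 35 counts in the day 8 libraries and 1741 and 1323 on day 12, a log2 FC of 7.24 (SE 0.81, adjusted p = 0.0011).

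Members of the p53 list that did not rise are few. PMAIP1, a proapoptotic gene, had 13.9 and 20.9 normalised CPM on day 8 and 18.2 and 37.3 on day 12 and 0.67 (adjusted p = 0.19), and the days overlapped. PLK2 had 3.02 (adjusted p = 0.055) with day 8 libraries at 0.266 and 5.18. The DNA polymerase POLK was the member that fell, with −1.21 (adjusted p = 0.015). POLK lost its call without day 12 library A (adjusted p = 0.072).

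Genes of apoptosis, a list that includes BAX and BBC3 from above, went both ways. The survival factor BCL2L1, whose product BCL-XL keeps late erythroblasts alive, had 129 and 263 normalised CPM on day 8 and 1557 and 1268 on day 12 and rose with 2.85 (0.0025). BIRC2, an inhibitor of apoptosis, rose with 2.77 (0.00087), and the initiator caspase CASP9 with 2.12 (0.0034). BID fell from 10.9 and 4.42 on day 8 to 0.657 and 0.375 on day 12 with −3.89 (0.0034). The caspase scaffold APAF1 fell with −3.24 (0.0032), and the effector caspase CASP6 with −3.48 (0.0017). BIK had counts of 30 and 35 on day 8 and 0 in each day 12 library. The list gave 8 rises and 7 falls among 21 genes tested (5 and 9 with total counts, and 6 to 7 and 3 to 4 without day 8 library A or day 12 library A), median 0.43 (−0.48). BIK lost its call without day 12 library A (adjusted p = 0.053).

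The autophagy genes of the list rose nearly throughout, and its members were chosen with earlier results of these data known. Outside the list such genes went both ways. ATG7 and ATG4C fell with −1.65 (0.0047) and −3.90 (0.00083), and ATG2B and ATG4B rose with 1.32 (0.0057) and 1.10 (0.0086). Autophagy encloses organelles in a membrane and delivers them to the lysosome, and in red cells it clears the mitochondria. ULK1, the kinase that starts it, had 36.9 and 86.3 normalised CPM on day 8 and 571 and 473 on day 12. The membrane protein LC3 is encoded by MAP1LC3B, which had 53.3 and 82.3 on day 8 and 799 and 676 on day 12, and its relative GABARAPL1 had 9.74 and 29.2 on day 8 and 426 and 376 on day 12. In each case the day 12 libraries were alike and several times the day 8 libraries. Their log2 FC were 3.08 (SE 0.44, adjusted p = 0.0024), 3.44 (SE 0.33, adjusted p = 0.00073) and 4.36 (SE 0.55, adjusted p = 0.0016). SQSTM1, a cargo receptor for ubiquitinated material, rose from 133 and 263 on day 8 to 1584 and 1375 on day 12 with 2.90 (0.0022). PINK1, a kinase that marks damaged mitochondria, rose from 21.6 and 37.7 on day 8 to 537 and 343 on day 12 with 3.89 (0.00089), ATG14 with 3.42 (0.00075) and TFE3, a transcription factor of lysosome genes, with 3.43 (0.001). BNIP3L, the receptor that mitochondrial clearance in reticulocytes needs, rose less, from 286 and 417 on day 8 to 1044 and 1449 on day 12, with 1.83 (0.0054). Its relative BNIP3 was the member that fell, with −0.84 (0.042), and FUNDC1 and LAMP2 were not called. Over the list 25 of 28 genes tested were higher and 1 lower, median 2.02; with total counts 18 were higher and 3 lower, median 1.14. BNIP3 lost its call without any 1 library (adjusted p up to 0.168).

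Enzymes of ubiquitin transfer that serve late erythropoiesis rose as well. The CTLH complex is a ubiquitin ligase that works with the conjugating enzyme UBE2H in erythroid cells. UBE2H had 40.7 and 99.0 normalised CPM on day 8 and 559.9 and 704 on day 12 and the subunit WDR26 126 and 164 on day 8 and 946 and 1234 on day 12, a log2 FC of 3.18 (SE 0.46, adjusted p = 0.0025) and 2.91 (SE 0.31, adjusted p = 0.00097). The RING subunit RMND5A rose from 75.5 and 90.2 on day 8 to 484 and 505 on day 12 with 2.58 (0.00076) and YPEL5 with 2.22 (0.0025). In contrast ARMC8 fell from 83.6 and 61.4 on day 8 to 31.2 and 35.3 on day 12 with −1.12 (0.0092), and RMND5B, the paralogue of RMND5A, had −0.31 (adjusted p = 0.25). For the complex as listed, 9 of 12 genes were called higher and 1 lower (6 and 2 with total counts), median 1.59 (0.68). ARMC8 lost its call without day 12 library A (adjusted p = 0.073).

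Among other ubiquitin genes of erythroid cells, RNF10 had the largest change, from 119 and 164 normalised CPM on day 8 to 2839.8 and 1963 on day 12, a log2 FC of 4.08 (SE 0.39, adjusted p = 0.00072). SIAH2, a ligase of the hypoxia response, rose from 97.9 and 149 on day 8 to 1367 and 1145 on day 12 with 3.35 (0.00084), FBXO30 with 2.90 (0.0035) and MKRN1 with 2.82 (0.0008). UBB, a gene that encodes ubiquitin itself, rose from 1895 and 1733 TPM on day 8 to 2807 and 2428 TPM on day 12, with 2.06 (0.0044). The tripartite motif ligases diverged. TRIM58, which is known to degrade dynein in late erythroblasts, rose with 3.22 (adjusted p = 0.00098), while TRIM10 had 155 and 106 normalised CPM on day 8 and 68.8 and 123 on day 12, with overlap between the days, and −0.44 (adjusted p = 0.31). The adaptor UBAC1 was lower, with −0.81 (0.024). In total 16 of 22 rose and 1 fell (11 and 3 with total counts), median 1.39 (0.51). UBAC1 lost its call without either day 12 library (adjusted p up to 0.115).

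Subunits of the proteasome, where ubiquitinated proteins end, did not move with the ligases. Of 36 genes, 9 were called higher and 9 lower, with a median of −0.09 against −0.10 over all genes, and with total counts 0 and 19, median −1.0 against −0.99, and 4 to 8 and 2 to 3 without day 8 library A or either day 12 library. The deubiquitinating lid subunit PSMD14 was lowest, at 74.7 and 65.7 normalised CPM on day 8 and 14.6 and 19.1 on day 12 and −2.06 (adjusted p = 0.0013). The activator PSME4 was highest, from 178 and 173 on day 8 to 499.6 and 489.9 on day 12, with 1.49 (adjusted p = 0.0031).

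Chaperones split, 10 higher and 6 lower of 23 (4 and 11 with total counts, and 8 to 10 and 0 to 3 without day 8 library A or either day 12 library; median 0.19, or −0.73). HSPA5, the main chaperone of the endoplasmic reticulum, had 121 and 178 normalised CPM on day 8 and 2125 and 1361 on day 12 and rose with 3.54 (0.0011), and the cochaperone BAG1 rose from 40 and 50.5 on day 8 to 659 and 408 on day 12 with 3.56 (0.00074). DNAJA4 fell from 457 and 253 on day 8 to 75.7 and 99.1 on day 12 with −2.02 (0.0044). AHSP, the chaperone of free alpha globin, was at 643 and 719 on day 8 and 654 and 716 on day 12, a log2 FC of 0.01 (adjusted p = 0.98), while the alpha globin genes rose, and under total counts it was lower, −0.88 (adjusted p = 0.025). DNAJA4 lost its call without day 12 library A (adjusted p = 0.052).

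Genes of nuclear structure and enucleation also held large changes in both directions. XPO7, a nuclear exporter known from condensation of the erythroid nucleus, had 205 and 321 normalised CPM on day 8 and 3661 and 3748 on day 12, with like libraries on day 12 and a log2 FC of 3.82 (SE 0.40, adjusted p = 0.00089), 2.96 under total counts. PLEK2, which acts on actin late in erythropoiesis, had 24.3 and 65.9 on day 8 and 599.6 and 463 on day 12 and rose with 3.56 (0.0024). The deacetylase HDAC5 rose with 2.57 (0.0028). B-type lamin LMNB1 had 124 and 80.2 on day 8 and 1.53 and 2.1 on day 12 and fell with −5.81 (0.00021), LMNB2 fell with −2.97 (0.0008) and the lamin B receptor LBR with −2.30 (0.002). A-type lamin LMNA had 0.63 (adjusted p = 0.056). Nonmuscle myosins, motors of the contractile ring, fell, MYH10 from 252 and 130.2 on day 8 to 17.4 and 21.4 on day 12 with −3.30 (0.0011) and MYH9 with −1.84 (0.0025). Counted over 27 genes, 5 rose and 13 fell (3 and 15 with total counts, and 4 and 6 without day 12 library A), median −0.72 (−1.57). Tubulins and actin regulators gave 5 rises and 9 falls among 20 (2 and 11 with total counts, and 2 to 3 and 9 without either day 12 library). The abundant TUBB went from 2777 and 2148 TPM on day 8 to 52.0 and 61.4 TPM on day 12, with −3.93 (0.0005), TUBA1B from 3104 and 2206 TPM on day 8 to 51.2 and 66.5 TPM on day 12, with −3.98 (0.0004), and the tubulin-binding STMN1 fell with −4.86 (0.0002).

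Erythroid transcription factors were mostly kept or higher, and progenitor factors went both ways. GATA1, the master regulator of the lineage, had 149 and 176 normalised CPM on day 8 and 229 and 181 on day 12 and 0.34 (adjusted p = 0.28), or −0.56 (adjusted p = 0.11) under total counts. KLF1, which drives adult beta globin, had 413 and 602 on day 8 and 1026 and 998 on day 12 and 1.00 (adjusted p = 0.03), a call that total counts do not give, 0.13 (adjusted p = 0.71). The calls of rise that held under total counts were those of FOXO3, MXI1, NR3C1 and 3 genes of the NFE2-related network of stress and globin regulators. FOXO3, needed for late erythroid maturation, had 217 and 391 on day 8 and 1873 and 2522 on day 12 and rose by 2.85 (SE 0.41, adjusted p = 0.0024). MXI1, an antagonist of MYC, had 124 and 192 on day 8 and 822 and 874 on day 12 and rose with 2.43 (0.0017). NR3C1, the glucocorticoid receptor, rose with 2.03 (0.0015), NFE2L1 with 1.91 (0.0024), NFE2L2 with 1.73 (0.0023) and their partner MAFG with 1.74 (0.0039). LMO2, a bridge of the GATA1 complex, fell from 169 and 121 on day 8 to 25.3 and 25.1 on day 12, with −2.52 (0.00084), and IKZF1 from 226 and 185 on day 8 to 41.9 and 55.1 on day 12, with −2.08 (0.0015). In this list 12 of 22 were higher and 5 lower (6 and 7 with total counts, and 9 to 11 and 2 to 3 without day 8 library A or either day 12 library), median 1.11 (0.24). Of progenitor factors, MYB had 80.3 and 36.1 on day 8 and 1.05 and 1.41 on day 12 and −5.56 (adjusted p = 0.00058), MYC 232 and 133 on day 8 and 17.5 and 18.7 on day 12 and −3.34 (adjusted p = 0.0008), and RUNX1 41.6 and 23.7 on day 8 and 3.23 and 3.47 on day 12 and −3.28 (adjusted p = 0.001), while GATA2 had −0.32 (adjusted p = 0.32). Those were the 3 falls among 9 genes tested of 14 listed, beside 3 rises. LYL1, a basic helix-loop-helix factor, rose from 90.6 and 148 on day 8 to 418 and 324 on day 12 with 1.64 (0.0065), and the other rises, SPI1 and ZNF521, stayed at or below 1.36 normalised CPM (over the list 2 and 5 with total counts, and 0 to 1 and 3 without either day 12 library). KLF1 and ZNF521 lost their call without day 8 library A or either day 12 library, LYL1 without day 12 library A and SPI1 without either day 12 library (adjusted p up to 0.135).

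Genes of red cell metabolism moved by enzyme rather than by pathway. BPGM, which makes the 2,3-bisphosphoglycerate that lowers the oxygen affinity of haemoglobin, had 73.8 and 115 normalised CPM on day 8 and 503 and 727 on day 12 and rose with 2.71 (0.0016). HMOX1, which breaks heme down, had 11.6 and 83.3 on day 8 and 1029.6 and 896 on day 12 and rose by 4.34 (SE 0.89, adjusted p = 0.0076), with day 8 again uneven, 6.47 between the A libraries and 3.43 between the B libraries. GPX4, which reduces lipid peroxides, rose from 58.6 and 66.4 on day 8 to 633 and 389 on day 12 with 3.03 (0.00097), and GCLC, the first enzyme of glutathione synthesis, with 2.06 (0.0022). Falls included PKLR, the pyruvate kinase of red cells, from 223 and 110.4 on day 8 to 6.27 and 4.79 on day 12 with −4.91 (0.00056). The lactate dehydrogenase chains LDHA and LDHB fell with −3.52 (0.0016) and −3.07 (0.00068), mitochondrial PRDX3 with −3.63 (0.0015) and the abundant PRDX2 from 5013 and 4127 TPM on day 8 to 739 and 841 TPM on day 12, with −1.02 (0.025). Carbonic anhydrase CA1 fell from 14441 and 13569 TPM on day 8 to 1074 and 1871 TPM on day 12, with −1.78 (0.012), and CA2 had −0.28 (adjusted p = 0.43). Of 33 genes, 14 were higher and 9 lower (6 and 15 with total counts, and 7 to 9 and 7 to 8 without day 8 library A or day 12 library A), median 0.59 (−0.30). HMOX1 and CA1 lost their call without day 12 library A and PRDX2 without either day 12 library (adjusted p up to 0.105).

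The integrated stress response joins heme shortage and unfolded protein to translation through kinases of eIF2 and the factor ATF4. Its heme-regulated kinase, EIF2AK1, had 462 and 626 normalised CPM on day 8 and 1406 and 1315 on day 12 and 1.32 (adjusted p = 0.011), or 0.45 (adjusted p = 0.18) under total counts, while EIF2AK2, the kinase that answers double-stranded RNA, fell from 34.4 and 17.9 on day 8 to 2.09 and 3.13 on day 12 with −3.32 (0.0017). Target genes rose, TRIB3 from 29.0 and 173 on day 8 to 1811 and 1014 on day 12 with 3.80 (0.01), DDIT3, which encodes CHOP, from 5.99 and 29.7 on day 8 to 272 and 196 on day 12 with 3.72 (0.0065) and the feedback phosphatase subunit PPP1R15A from 245 and 339.5 on day 8 to 2318 and 1832 on day 12 with 2.83 (0.0014). The first and second of these were several times higher in day 8 library B than in A. The amino acid enzymes ASNS and PSAT1, targets too, had 0.37 (adjusted p = 0.26) and −1.45 (adjusted p = 0.0043). Counts were 10 higher and 2 lower of 18 (6 and 4 with total counts, and 3 and 2 without day 12 library A), median 0.89 (0.02). EIF2AK1 and TRIB3 lost their call without day 12 library A (adjusted p up to 0.067).

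Mitochondria are removed at the end of maturation. Of the transcripts of their own genome, the mRNAs were lower and the ribosomal RNAs RNR1 and RNR2 higher. RNR2 took 0.426% and 0.636% of the counts on day 8 and 1.15% and 1.21% on day 12. The calls of both ribosomal RNAs were lost without day 12 library A. The 13 mRNA genes, grouped after values had been seen, took 1.64% and 1.56% of the counts on day 8 and 0.405% and 0.533% on day 12. 11 were called lower and none higher, median −1.21, and with total counts all 13 were lower, median −2.08. The oxidase subunit COX2, here the mitochondrial gene on chromosome M, had 3196 and 3114 TPM on day 8 and 389 and 496 TPM on day 12 and −1.34 (adjusted p = 0.0065). Without day 12 library A, 2 were called lower. Respiratory chain genes of the nucleus changed less as a list, 6 higher and 11 lower of 44, median −0.23 against −0.10 over all genes (0 and 29 with total counts, and 3 to 6 and 7 without day 8 library A or either day 12 library, median −1.15). ATP5MC3, of the ATP synthase ring, and NDUFA9, of complex I, were its lowest members, with −2.78 (0.0016) and −2.52 (0.0013).

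Few cytosolic ribosomal protein genes were called, 12 higher and 1 lower of 79, against 24.6% and 28.5% of all genes tested, and their median was 0.30 against −0.10. The sets of libraries differed, with a list median of 0.53 between the A libraries and −0.04 between the B libraries, and total counts gave 1 and 33, and 3 to 7 and 1 to 2 without either day 8 library or day 12 library A. Splicing factors gave 6 rises and 11 falls among 31 (2 and 20 with total counts, and 3 and 7 to 8 without day 8 library A or either day 12 library). HNRNPA1 went from 1530.2 and 1097 normalised CPM on day 8 to 225 and 232 on day 12, with −2.52 (0.0014), and SRSF1 from 299 and 205 on day 8 to 56.2 and 55.1 on day 12 with −2.18 (0.0015). RBM38, itself a p53 target and a splicing regulator of protein 4.1 in late erythroblasts, rose from 173 and 308 on day 8 to 1908 and 1509 on day 12 with 2.83 (0.0021), and MBNL2 with 2.54 (0.0049).

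Of cholesterol synthesis genes 7 rose and 4 fell among 23 (2 and 10 with total counts, and 4 and 5 without day 8 library A or day 12 library B), and the sterol reductase TM7SF2 rose from 6.38 and 11.8 on day 8 to 98.3 and 82.0 on day 12 with 3.31 (0.00093). Interferon response genes gave 8 rises and 1 fall among 14 tested of 20 (3 and 4 with total counts, and 1 to 2 and 1 without either day 12 library), and IFI27 had the largest, from 4.72 and 4.28 on day 8 to 43.3 and 57.6 on day 12 with 3.49 (0.00041). Hypoxia targets gave 5 and 4 among 16 tested of 19 (2 and 7 with total counts, and 3 and 0 to 2 without day 8 library A or either day 12 library). Beside these counts, 24.6% of all genes tested were higher and 28.5% lower, and the hypoxia counts lie near those shares. Replication-dependent histone genes, grouped after values had been seen, had a median log2 FC of 2.25 between the A libraries and −1.63 between the B libraries, so that the sets disagreed in sign. Their mRNAs lack a poly(A) tail and the libraries were made by poly(A) selection, and no direction is read from them.

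The single genes with the largest changes repeat some of these groups and add others. Among messenger RNA genes with a mean of at least 10 normalised CPM and no overlap, the 10 largest falls were those of POLE2, CDCA7, GINS1, LRRCC1, POLQ, UHRF1, WDR76, CENPI, BRIP1 and DSCC1, with log2 FC from −8.16 to −6.99. Most are known from replication, repair or chromatin copying. POLE2, a subunit of the leading-strand polymerase, had 2264 and 1541 counts on day 8 and 0 and 7 on day 12. UHRF1, which keeps DNA methylation through replication, went from 89.7 and 56.3 normalised CPM on day 8 to 0.219 and 0.817 on day 12. The 10 largest rises were those of PGF, CHST7, IQCN, GBP2, DENND11, ANXA1, CDKN1A, PHLDA3, HBE1 and RRAD, from 7.01 to 8.78. PGF, placental growth factor, which erythroblasts are known to secrete, had 0 and 30 counts on day 8, and its level was 0 and 0.355 normalised CPM on day 8 and 113 and 47.4 on day 12, a log2 FC of 8.78 (adjusted p = 0.0017). ANXA1, a phospholipid-binding protein, had 0.139 and 1.34 on day 8 and 118 and 166 on day 12, and RRAD, a small GTPase, 0.0759 and 0.390 on day 8 and 31.7 and 29.4 on day 12, with 7.57 (adjusted p = 0.0015) and 7.01 (adjusted p = 0.00076). GBP2, a guanylate-binding protein of the interferon response, had 0.101 and 0.225 on day 8 and 36.1 and 46.7 on day 12, with 7.96 (adjusted p = 0.0002).

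By abundance the list is another. On the TPM scale, with globins left out, 9 of the 10 largest gains among called genes were those of FTH1, FTL, the mitochondrial ribosomal RNAs RNR1 and RNR2, UBB, OAZ1, GDF15, SLC25A39 and FKBP8. FTL stood at 7131 and 12413 TPM on day 8 and 27482 and 21478 TPM on day 12. OAZ1, antizyme, which has ornithine decarboxylase degraded, had 1022 and 1101 TPM on day 8 and 2323 and 2243 TPM on day 12, SLC25A39, a mitochondrial carrier of glutathione, 979 and 1109 TPM on day 8 and 1897 and 1699.7 TPM on day 12, and FKBP8, a mitochondrial outer membrane protein, 589 and 681 TPM on day 8 and 1659 and 1569.6 TPM on day 12. In all 3 the day 12 libraries were the higher. The 10 largest losses were those of CA1, TFRC, PRDX2, TUBB, TUBA1B, PTMA and the mitochondrial genes COX2, COX3, ATP6 and ATP8. PTMA, prothymosin, which is tied to cell growth, had 2191 and 1506 TPM on day 8 and 74.6 and 103 TPM on day 12. RNR1 and COX3 lost their call without either day 12 library and RNR2 and ATP6 without day 12 library A (adjusted p up to 0.119).

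The libraries of days 1 to 7 place these changes in the course of the culture. CDKN1A had 0.344 to 9.43 TPM over the 14 libraries of days 1 to 7 and 444 and 484 TPM on day 12. MDM2 had 17.8 to 32.8 TPM on days 1 to 7 against 71.5 and 109 on day 12. GDF15 had 15.6 to 324 TPM and then 3951 and 5073. In all 3 both day 12 libraries lay above every earlier library. The same holds for XPO7, with 104 to 145 TPM on days 1 to 7 and 571 and 771 on day 12, and for RNF10, with 81.8 to 110 TPM and then 566 and 517. MCM6 and CDK1 were near their earlier levels on day 8, MCM6 in library B just below its earlier range. MCM6 had 87.7 to 177 TPM over days 1 to 7, 125 and 81.8 on day 8 and 0.240 and 0.462 on day 12, and CDK1 had 179 to 319 TPM, 291 and 278, and 3.60 and 4.02. ANXA1 had another course, with 0.233 to 496 TPM on days 1 to 7, its highest level on day 1, then 0.249 and 2.16 TPM on day 8 and 64.2 and 119 TPM on day 12. TPM carry the globin share of each library in their total, so a gene that keeps its mRNA reads lower in TPM on day 12.

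**Figure D2:**
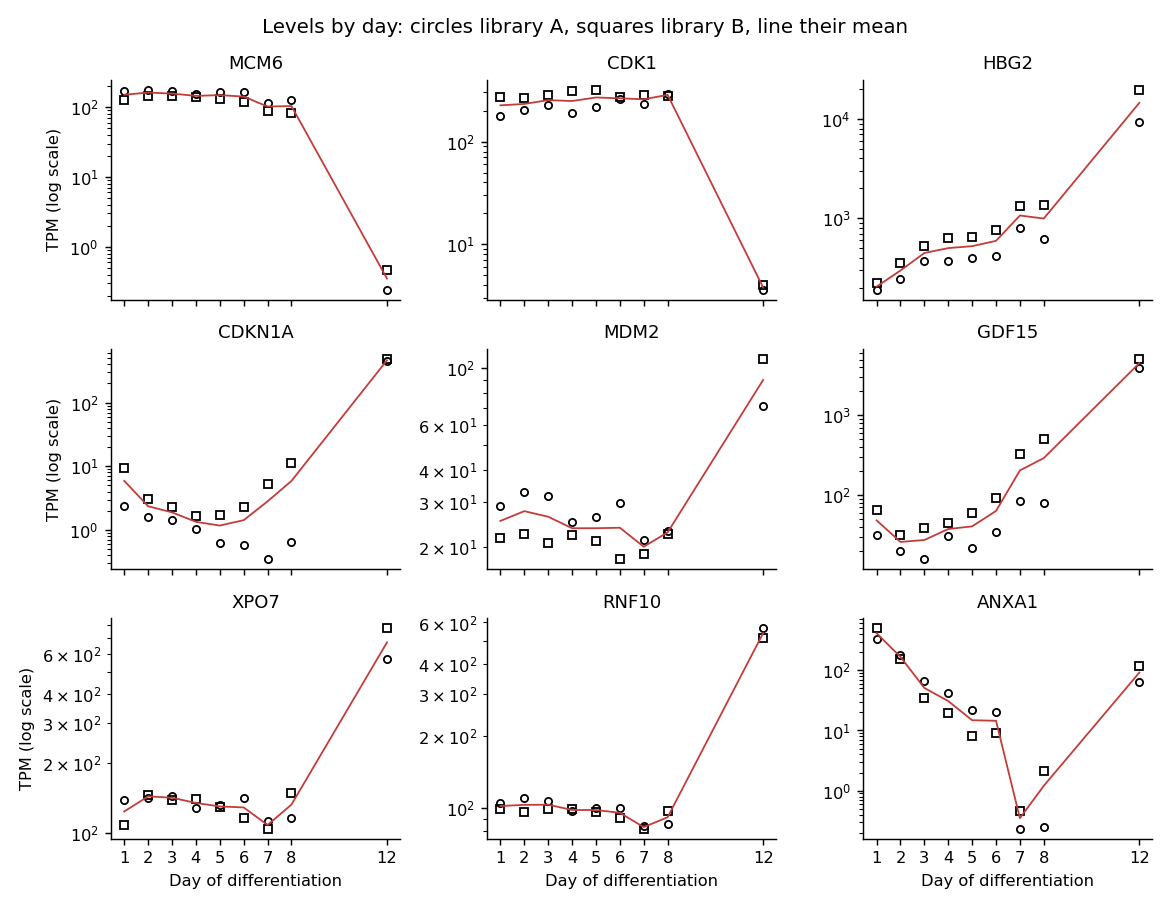
TPM on a log scale (vertical axis) by day of differentiation (horizontal axis, days 1 to 8 and 12) of 9 genes, with library A as circles, library B as squares and a line through the mean of the 2. MCM6 and CDK1 stay near their first level until day 8 and are at 0.24 to 4.02 TPM on day 12, CDKN1A, MDM2, XPO7 and RNF10 rise between days 8 and 12, and ANXA1 falls from day 1 before it rises.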

How the data were processed

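Total RNA of HUDEP-2 cells was sequenced by the authors from TruSeq Stranded mRNA libraries, which select poly(A) RNA. Per the labels, reads were trimmed with Trimmomatic 0.38, aligned with HISAT2 2.1.0 to hg38 and assembled and counted per transcript with StringTie 2.1.3b. The authors deposited read counts, FPKM and TPM of 170322 transcripts in 4 tables. Here the deposited counts and the deposited TPM were summed over the transcripts of each of 46425 gene symbols, so genes that share reads stay uncertain. The 27 columns of FPKM and of day 0 (more sets of columns than samples) were not used. Genes were kept by filterByExpr, scaled with TMM factors (1.52, 1.23, 0.677 and 0.795 in day 8 A and B and day 12 A and B) and tested with the quasi-likelihood test of edgeR 4.0.16 (R 4.3.3), 2 against 2 libraries, Benjamini-Hochberg adjusted. Alternatives used DESeq2 1.42.0 and limma 3.58.1. The steps were tested on simulated counts with as many rises as falls and no shift in globin share. Those counts could not check how the scaling handles such a shift. Named genes are the 10 largest called rises and falls with a mean of at least 10 normalised CPM and no overlap, the 10 largest gains and losses of TPM, the list members with the largest changes and those best known. Some genes that meet these rules are not reported here. The members and lists were chosen with earlier results of these data known. Promoters are RefSeq windows of GRCh38.p14.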

Additional observations from a re-analysis of the deposited data

How the results depend on the processing

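How many genes rose or fell depended on the scaling of the libraries. With total counts in place of TMM factors, 1646 genes were higher and 6409 lower, on log2(TPM + 1) with limma 1083 and 8489, and on log2(TPM + 0.1) 1165 and 8724. Those TPM hold the globin share in their total. Left without 1 library, rises ranged from 1905 to 3592 and falls from 2236 to 4117, the lowest in both cases without day 12 library A. The exact test of edgeR, DESeq2, TMM without globin genes or without ribosomal RNA genes, upper-quartile factors, the other filters, a term for the set of tables and a fit of all 18 libraries stayed within 1.5 times of both counts. The difference in globin share, 21.8 percentage points of counts, was 33.5 of TPM. With total counts the log2 FC turned to −0.88 for AHSP, −0.50 for ASNS, −0.56 for GATA1, −0.27 for LMNA and −0.15 for PMAIP1. On log2(TPM + 1) it turned to −1.50 for AHSP, −0.19 for ALAS2, −1.11 for ASNS, −0.38 for ATF4, −0.18 for EIF2AK1, −0.32 for EPOR, −0.57 for FECH, −1.17 for GATA1, −0.0717 for HBD, −0.0796 for HBZ, −0.49 for KLF1, −1.06 for LMNA, −0.99 for PMAIP1, −0.59 for SLC4A1 and −0.23 for STAT5B. On log2(TPM + 0.1) the values were −1.50 for AHSP, −0.19 for ALAS2, −1.11 for ASNS, −0.38 for ATF4, −0.18 for EIF2AK1, −0.32 for EPOR, −0.57 for FECH, −1.17 for GATA1, −0.0717 for HBD, −0.14 for HBZ, −0.49 for KLF1, −1.07 for LMNA, −1.08 for PMAIP1, −0.59 for SLC4A1 and −0.24 for STAT5B. Values near 0 changed sign under other settings, AHSP −0.00403 without ribosomal RNA genes, −0.12 with no filter beyond 1 count, −0.00367 with at least 10 counts in every library and −0.0522 over 18 libraries, CISH 0.0211 with DESeq2 and 0.00791 with the term for the set of tables and JAK2 0.0312 with DESeq2. With 1 library left out the log2 FC ranged from −0.0754 to 0.0685 for AHSP, −0.33 to 0.29 for CISH, −0.56 to 0.13 for HBM, −0.55 to 2.91 for HBZ, −0.35 to 0.26 for JAK2 and −0.20 to 0.0800 for LAMP2. Of 200 named genes called, 44 lost the call without some library, 41 of them without day 12 library A. The cause of these changes was not tested. No paired analysis was possible because the columns of the tables carry no replicate numbers to match the labels. The term for the set of tables, which sets A against A and B against B, gave 3191 rises and 3606 falls, and 10 named genes lost the call with it, ATF4, BNIP3, CD14, CDKN2C, FECH, HBB, HBD, PPOX, PRDX2 and UBAC1 (adjusted p 0.0505 to 0.113). With 2 libraries a day a spread is known from a single difference, and at the depths given a count of 0 cannot be told from a level under 0.0435 to 0.0575 CPM.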

Other observations

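Before day 12, the libraries of the separate tables stood above those of the table that spans all days for several genes that were higher later. The genes given here were chosen after their values were seen. On day 7 CDKN1A was at 0.344 TPM in library A and 5.28 in library B, and on day 8 at 0.658 and 11.1. GDF15 was at 84.0 and 324 TPM on day 7 and at 79.2 and 503 on day 8. For HMOX1 the values were 17.3 and 50.7 TPM on day 7 and 20.4 and 122 on day 8. TRIB3 had 25.1 and 81.8 TPM on day 7 and 32.1 and 159 on day 8. MDM2 differed little between the sets, with 21.3 and 18.7 TPM on day 7 and 23.1 and 22.4 on day 8. Ribosomal RNA took 17.6% of the counts in day 7 library B and 16.8% in day 8 library B, against 2.17% and 1.88% in the A libraries of these days, and its part in the differences was not tested.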
